A study of Mus musculus with 8 samples.

Results

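The Dlx homeobox family of the mouse has 6 genes, Dlx1 to Dlx6, and they were followed here through 8 tumours grown from N-Myc transduced neural crest cells. Members were taken by gene symbol, and the probe set of each was chosen by its log2 level in all 8 tumours, as the one of highest mean among those annotated to that symbol alone. This gave 5 of the 6 genes out of 22180 genes read in the same way. Dlx1 is not among them, because its probe set is annotated to Dlx1as as well, and shared probe sets were not used. Each of the 5 had 1 such probe set, so the choice by mean changed none of their values. The family was singled out with its levels over these tumours known, so the levels below are a description.

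RNA of 8 primary tumours was labelled and hybridised to Affymetrix arrays, with 1 array per tumour. All 8 tumours carry the same labels and form 1 group (n = 8), with no normal tissue or second tumour type to set against them. The tumours arose from a mixture of p53+/- and p53-/- neural crest cells that had received N-Myc, a driver of high-risk neuroblastoma. About 10000 cells were injected under the skin of nude or C57Bl/6 mice 48 hours after infection, and tumours were removed after about 50 days. Which tumour grew in which host strain, or from which p53 genotype, the labels do not say. Nothing in the labels states that the tumours came from separate cultures or animals, so the p-values cover the spread between these 8 samples, part of which may be technical. Values are log2 expression levels, and the arrays' background, the 95th percentile of odorant, pheromone and bitter taste receptor probe sets on each array, lay between 5.45 and 5.66.

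Dlx proteins are homeodomain transcription factors related to Distal-less of the fruit fly. In mammals their genes lie in convergently transcribed pairs, Dlx1 with Dlx2, Dlx3 with Dlx4 and Dlx5 with Dlx6, and the partners of a pair share enhancers and are often transcribed in the same cells. Dlx1, Dlx2, Dlx5 and Dlx6 are known for the making of GABA neurons in the ventral forebrain and for the patterning of jaw skeleton by cranial neural crest. Dlx3 and Dlx4 are known from surface ectoderm and placenta, and Dlx3 and Dlx5 from skin, teeth and bone.

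The RefSeq table of start-site windows, each from 250 bases before to 50 bases after an annotated start in GRCm38.p6, held windows for 2 of the 6 members, Dlx1 and Dlx2. It also held windows for the antisense RNA genes Dlx4os, Dlx6os1 and Dlx6os2, while no window of Dlx1as was read. Dlx6os1 (Evf2) is an RNA antisense to Dlx6. Both Dlx6os1 windows and the Dlx2 window are shown as examples, chosen after their motif counts were seen, of windows with many matches to the motif below and with none. Capitals mark TAATT or its reverse complement, a form of the core that many homeodomains bind. Overlapping matches run together, and the palindrome TAATTA holds a TAATT match on each strand.
Dlx6os1 start 1, chr6:6869484-6869783, minus strand: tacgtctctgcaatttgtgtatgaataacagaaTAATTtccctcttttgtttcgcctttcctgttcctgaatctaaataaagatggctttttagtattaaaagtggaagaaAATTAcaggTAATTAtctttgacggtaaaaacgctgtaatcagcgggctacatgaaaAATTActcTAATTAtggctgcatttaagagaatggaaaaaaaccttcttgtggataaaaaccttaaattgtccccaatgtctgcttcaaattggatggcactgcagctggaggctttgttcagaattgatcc
Dlx6os1 start 2, chr6:6861634-6861933, minus strand: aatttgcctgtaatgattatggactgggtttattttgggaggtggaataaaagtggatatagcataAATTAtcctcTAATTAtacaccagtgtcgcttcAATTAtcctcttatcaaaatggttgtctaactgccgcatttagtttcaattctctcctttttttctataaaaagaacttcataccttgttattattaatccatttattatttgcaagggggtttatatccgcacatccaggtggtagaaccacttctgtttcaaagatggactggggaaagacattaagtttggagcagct
Dlx2, chr2:71546705-71547004, minus strand: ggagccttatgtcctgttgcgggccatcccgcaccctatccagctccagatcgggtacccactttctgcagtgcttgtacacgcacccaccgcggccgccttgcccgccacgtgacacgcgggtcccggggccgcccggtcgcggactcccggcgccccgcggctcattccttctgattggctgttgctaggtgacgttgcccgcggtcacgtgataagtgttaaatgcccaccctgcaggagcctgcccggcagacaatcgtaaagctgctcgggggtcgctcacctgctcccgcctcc
The first Dlx6os1 window held 7 matches to TAATT on either strand and the second held 4, while the Dlx2 window held 0. Of the windows not printed, that of Dlx6os2 held 1 match and those of Dlx1 and Dlx4os held 0. At least 1 match was present in 27% of all 32841 windows of this length and 3 or more in 3.97%. The longer palindrome TAATTA occurred 2 times in the first Dlx6os1 window and 1 time in the second, and 5.29% of all windows held it. The Dlx2 window was rich in G and C (66.3%, with 29 CpG dinucleotides), against 35.7% and 35.3% in the Dlx6os1 windows with 5 and 3 CpG dinucleotides. The median window had 52.7% and 7 CpG dinucleotides. The Dlx2 window held 2 copies of CACGTG, an E-box that Myc proteins bind and that reads the same on both strands; 7.15% of all windows held it, and it is not in capitals above. A match is a string of letters and was not tested as a binding site.

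Dlx5 was the member with the widest spread over the tumours. Dlx5, a factor of bone, jaw and forebrain development, was at 9.85 in tumour 5 and 9.68 in tumour 3 on the log2 scale. Next came tumour 2 at 8.70, tumour 1 at 8.36 and tumour 7 at 7.94. Tumour 6 had 6.78, tumour 4 had 6.43 and tumour 8 had 4.99. The levels form a graded series that ends with tumour 8, where the gene was below the array background. The deposited values spanned 4.85 on the log2 scale around a mean of 7.84 ± 1.67 (SD, n = 8). With tumour 8 below background, this span is not a measured fold of expression. The SD exceeded that of all 1425 receptor genes, which should be silent in these cells and whose median SD was 0.16. Of the 12699 genes above background, 14 had a larger SD. In whole tumours, fewer cells of a type and less RNA per cell cannot be told apart.

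Dlx6, the linked partner, had a different distribution. It was at 7.58 in tumour 5 and 7.41 in tumour 3, the same tumours in which Dlx5 was highest. In the other 6 tumours it lay between 4.56 (tumour 8) and 5.47 (tumour 6), so the tumours fell into separate clusters of 2 and 6. Dlx6 was above its array's background in 2 of 8 tumours, whereas Dlx5 was above it in 7 of 8. Tumours 1, 2 and 7, with Dlx5 at 7.94 or higher, had Dlx6 at 5.27, 5.16 and 5.23. The mean of Dlx6 was 5.69 ± 1.15 (SD, n = 8), and its SD also exceeded that of all receptor genes.

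**Figure D1:**
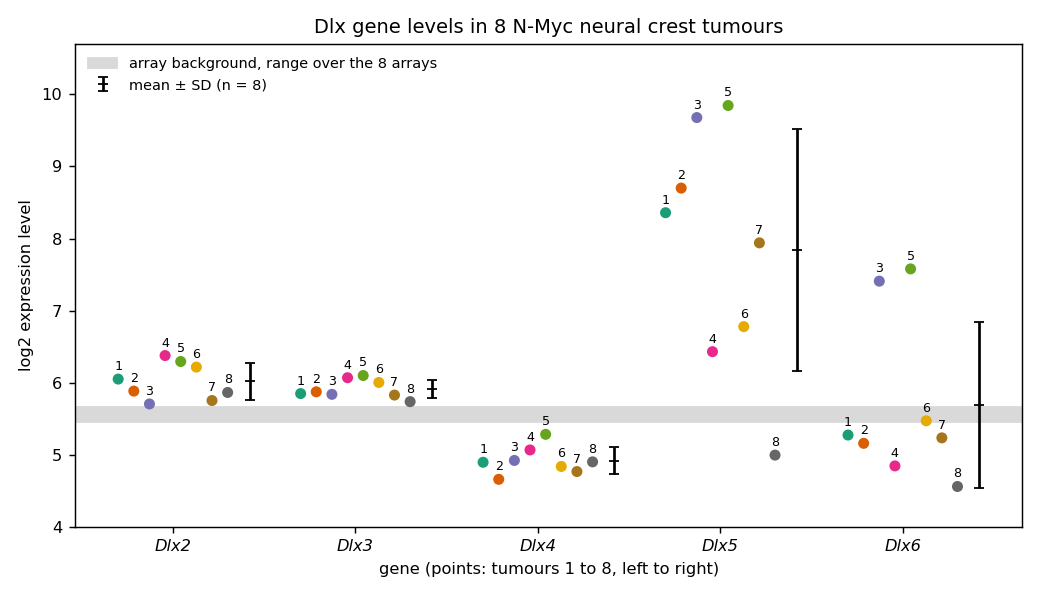
Log2 expression level (vertical axis) of the 5 measured Dlx genes, with tumours 1 to 8 as points from left to right within each gene, the mean ± SD as a bar and the range of array backgrounds as a grey band. Dlx5 runs from 4.99 to 9.85, Dlx6 stands above the band in tumours 3 and 5, and Dlx2, Dlx3 and Dlx4 each stay within a range of 0.67 or less.

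Dlx2, known for its role with Dlx1 in forebrain and arch mesenchyme, was close to background in all tumours. Its lowest level was 5.70 in tumour 3, its median 5.97 and its highest 6.38 in tumour 4. Tumours 4, 5 and 6 had the 3 highest values, at 6.38, 6.29 and 6.22. Dlx3, an ectodermal and skeletal factor, had a lowest level of 5.74 in tumour 8, a median of 5.86 and a highest level of 6.10 in tumour 5. The same 3 tumours, 5, 4 and 6, were its highest. Dlx4, its partner, ran from 4.66 in tumour 2 over a median of 4.90 to 5.28 in tumour 5, below background throughout.

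The small differences of these 3 genes were of the size seen in genes that should be silent. The SD over tumours was 0.25 for Dlx2, 0.13 for Dlx3 and 0.19 for Dlx4. Among the 1425 receptor genes, 153 had a larger SD than Dlx2, 949 a larger SD than Dlx3 and 459 a larger SD than Dlx4. There is no technical repeat of an array here, so no level of noise was measured directly.

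Dlx5, Dlx2 and Dlx3 were called above the array background and Dlx6 and Dlx4 were not. The test asks whether a gene's mean level differs from a percentile of receptor probe sets. Some receptor probe sets lie above that percentile by its definition, so a call alone does not show that a transcript is present. Dlx5 exceeded background by 2.25 on the log2 scale (SE 0.52, limma, adjusted p = 0.00223). Dlx2 exceeded it by 0.43 (SE 0.08, limma, adjusted p = 0.000209) and Dlx3 by 0.32 (SE 0.06, limma, adjusted p = 0.00016). Dlx6 differed from it by 0.10 (SE 0.37, limma, adjusted p = 0.792), and Dlx4 was lower by this measure (-0.67, SE 0.06, limma, adjusted p = 5.6e-07). The count of 3 of 5 members compares with 57.3% of all 22180 genes called above background. It depends on where background is set. At the 99th percentile of receptor probe sets 0 of 5 members were called, against 9288 of all 22180 genes. Dlx5 was not called there (1.25, limma, adjusted p = 0.0593), and Dlx2 and Dlx3 were below that level by 0.58 and 0.68.

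The linked pairs were then compared across tumours with two-sided exact permutation tests and adjustment over the 10 pairs of measured members. For Dlx5 and Dlx6 no correlation over all tumours is given, since tumours 3 and 5 form a cluster of their own in Dlx6. Over the other 6 tumours Pearson's r was 0.70 (exact permutation p = 0.117, adjusted p = 0.292) and Spearman's rho 0.49 (exact permutation p = 0.356, adjusted p = 0.713). Tumour 8 had the lowest level of both genes. In all of these 6 tumours Dlx6 was below its array's background, so r and rho rest on Dlx6 values below background. The order of the partners differed elsewhere. Dlx6 was highest in tumour 6 (5.47), where Dlx5 (6.78) was lower than in tumours 1, 2 and 7.

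The relation of Dlx3 and Dlx4 rested on tumours 4 and 5. Over the 8 tumours r was 0.65 (exact permutation p = 0.0776, adjusted p = 0.292) and rho 0.40 (exact permutation p = 0.327, adjusted p = 0.713). Without tumours 4 and 5, the farthest from the median of Dlx3, r was -0.25 over 6 tumours. The Dlx1 and Dlx2 pair could not be compared, as Dlx1 has no level of its own here.

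Among the pairs as compared here, the highest r was not that of a linked pair. Dlx5 and Dlx6 were compared over 6 tumours only, and Dlx1 with Dlx2 could not be compared. Dlx2 and Dlx3, on chromosomes 2 and 11, had r = 0.87 (exact permutation p = 0.00719, adjusted p = 0.0719) and rho = 0.86 (exact permutation p = 0.0107, adjusted p = 0.107). Without tumours 4 and 5, r was 0.69 over 6 tumours. The relation did not pass after adjustment. Beside it stands a pattern shared with much of the array: 14.6% of all genes had an unadjusted limma p under 0.05 for a slope on Dlx2 and 13.8% for a slope on Dlx3, against 4.21% for Dlx5. The share was 11.4% and 9.61% among receptor genes. The part of this shared pattern in the relation was not tested. The remaining 7 pairs had adjusted permutation p-values of 0.292 or more.

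**Figure D2:**
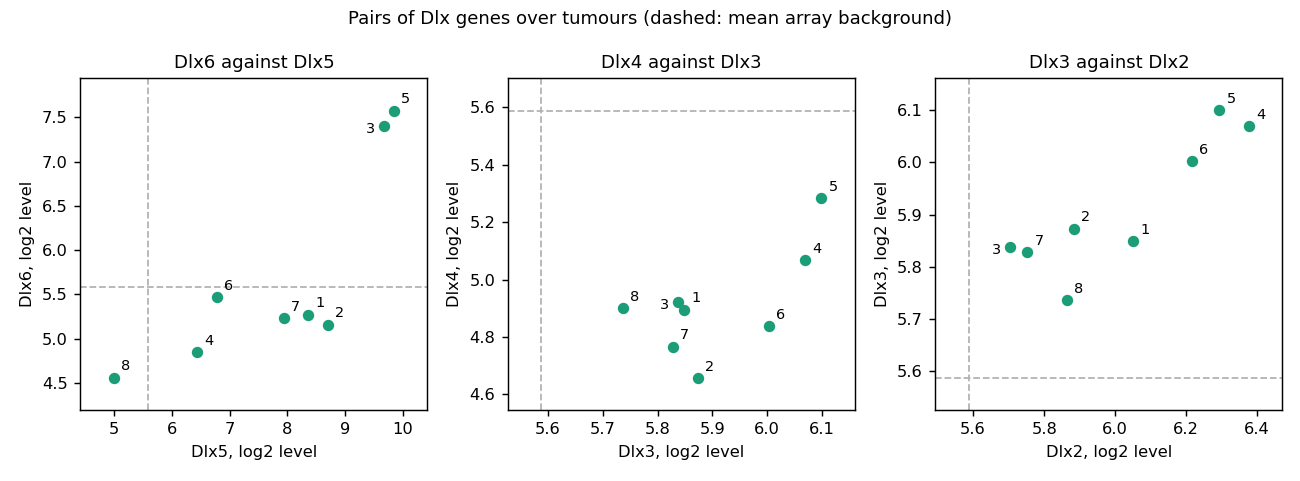
Log2 level of one Dlx gene against another, with 1 point per tumour labelled by its number and the mean array background dashed. Tumours 3 and 5 stand apart in Dlx6, tumours 4 and 5 set the slope of Dlx4 on Dlx3, and Dlx2 and Dlx3 vary together over a range of 0.67 and 0.36.

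The antisense RNAs with a probe set of their own, Dlx6os1, Dlx6os2 and Dlx4os, did not reach background in any tumour. Dlx6os1 ran from 4.31 in tumour 6 to 4.82 in tumour 5, with 4.56 in tumour 3. Its range was narrow, yet its order was close to that of Dlx5 (r = 0.87 over 8 tumours, slope on Dlx5 with limma adjusted p = 0.999). Dlx6os2, a second antisense RNA within Dlx6, was highest in tumours 4 and 8 (4.96 and 4.90), where Dlx5 was low. Dlx4os, antisense to Dlx4, ran from 4.11 in tumour 8 to 4.67 in tumour 1. Dlx6 overlaps both of its antisense genes, and whether each probe set reads 1 strand only was not tested.

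Next to the pairs, genes on either side had narrower ranges than Dlx5 or Dlx6. Of the 5 nearest annotated genes on each side, 4 of 10 had a level at the Dlx5/Dlx6 locus, 6 of 10 at Dlx3/Dlx4 and 5 of 10 at Dlx1/Dlx2. Sdhaf3, an assembly factor of mitochondrial complex II beyond Dlx5, was at 7.79 in tumour 5 and 7.66 in tumour 3, its highest tumours as they were for Dlx5. It was lowest in tumour 8 (6.90), with an SD of 0.31. Its slope on Dlx5 had a limma adjusted p of 0.999. Tac1, the substance P precursor gene, was below background on average (4.82 ± 0.57) and highest in tumours 4 and 6 (5.69 and 5.61). Gm19272 at the same locus stayed between 3.83 and 4.23.

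At the Dlx3/Dlx4 locus, Kat7, a histone acetyltransferase gene, was at 10.01 ± 0.19 (SD, n = 8) and Samd14 at 8.78 ± 0.34. Pdk2, a pyruvate dehydrogenase kinase, varied most of these neighbours, with 8.02 in tumour 4 and 6.12 in tumour 1. Itga3, an integrin subunit, was at 5.97 ± 0.32, and Tac4, a tachykinin gene, at 4.96 ± 0.20. At the Dlx1/Dlx2 locus, Slc25a12, a mitochondrial carrier, was at 9.91 ± 0.11, Hat1, a histone acetyltransferase, at 9.12 ± 0.32 and Metap1d, a mitochondrial aminopeptidase, at 6.76 ± 0.31. The non-coding genes Platr26 and Gm17250 averaged 5.63 and 5.26.

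**Figure D3:**
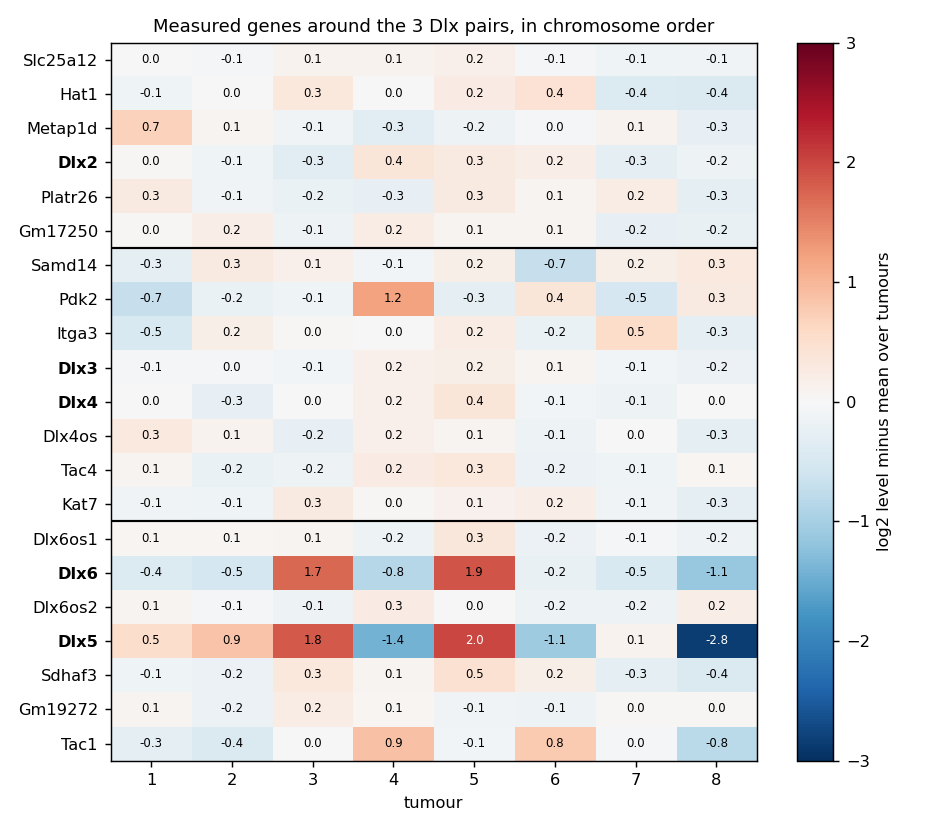
Log2 level minus its mean over the tumours (colour and printed value) for the measured genes around the Dlx1/Dlx2, Dlx3/Dlx4 and Dlx5/Dlx6 pairs, in chromosome order from top to bottom and split by lines, with tumours as columns. Dlx5 and Dlx6 carry the widest differences, and the neighbouring genes stay closer to their means, with the widest swings in Pdk2 and Tac1.

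To find genes with a pattern like that of each member, a slope on that member's level was fitted for all other genes with limma. The test called 0 of 22179 genes (0.0%) for each of the 5 members, and at an unadjusted limma p under 0.05 it marked 933 genes for Dlx5, 1214 for Dlx6, 3245 for Dlx2, 3060 for Dlx3 and 1781 for Dlx4. These are 4.21%, 5.47%, 14.6%, 13.8% and 8.03% of the genes. Positive slopes made up 1.93% for Dlx5, 3.69% for Dlx6, 9.76% for Dlx2, 8.22% for Dlx3 and 5.23% for Dlx4. Negative slopes made up 2.27%, 1.78%, 4.87%, 5.57% and 2.8% in the same order. The slopes on Dlx6 were fitted over all 8 tumours, so they rest largely on tumours 3 and 5 against the others. Without trend and robust prior in limma the adjusted count was also 0 for each. Without tumour 8, 2 genes passed for Dlx5, Frrs1l (negative) and Plcb4 (positive), both chosen here after their values were seen. Likeness is therefore given below as r with n = 8, over the 1190 genes above background with an SD of at least 0.5.

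The genes most like Dlx5 varied less than Dlx5 itself, with SDs between 0.61 and 0.70. Stxbp2, a syntaxin-binding protein of exocytosis, had r = 0.90, with 8.70 and 8.62 in tumours 3 and 5 and 6.66 in tumour 8. Slc10a4, a transporter-like protein of synaptic vesicles, had r = 0.90, with 8.04 in tumour 3 and 6.08 in tumour 8. H4c14, a histone H4 gene, had r = 0.89, Spock3, a matrix proteoglycan, 0.88, Marchf11, a ubiquitin ligase, 0.86, and Grem1, a secreted BMP antagonist, 0.85. Grem1 was highest in tumour 3 (7.57) and lowest in tumour 8 (5.50). All 6 had their lowest level in tumour 8, as Dlx5 did, which their choice by r with Dlx5 favours. The limma adjusted p of their slopes lay between 0.641 and 0.999.

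The genes least like Dlx5, chosen by the lowest r, were by that choice higher where it was low. Atp6v0d2, a subunit of the vacuolar proton pump, had r = -0.95, with 7.37 in tumour 8 and 5.83 in tumour 5 (limma adjusted p = 0.641). Magi1, a junction scaffold, had r = -0.94, with 7.45 in tumour 8 and 5.91 in tumour 3. Sptb, erythroid beta-spectrin, had r = -0.89 and stood at 10.07 in tumour 8, where the other 7 tumours lay between 7.12 and 8.58. Igsf11, an adhesion molecule, had r = -0.89, with 8.24 and 8.01 in tumours 8 and 4.

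For Dlx2, the highest r was that of Ppp1r14a, an inhibitor of protein phosphatase 1 (0.87), followed by Gamt, an enzyme of creatine synthesis (0.87), and Neurod1, a neurogenic factor (0.86). Crym (0.85), Gm2115 (0.83) and Slc18a3, the vesicular acetylcholine transporter (0.83), came next. Slc18a3 was at 10.68 in tumour 6 and 9.83 in tumour 4. The lowest r belonged to DQ267101 (-0.94), Rec114 (-0.94), D5Ertd579e (-0.92) and Mir1188 (-0.92). DQ267101 and Mir1188 are both on chromosome 12, and each was lowest in tumour 4 (5.86 and 6.97). DQ267101 passed the adjusted test when arrays were centred (limma adjusted p = 0.0296), when probe sets were averaged (limma adjusted p = 0.00876) and when arrays were quantile normalized again (limma adjusted p = 0.0339), but not as deposited (0.146).

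For Dlx3, Gm3893 (r = 0.95) and Epb41l4a, a cytoskeletal adaptor (r = 0.94), were highest. Epb41l4a had 9.43 in tumour 4 and 8.82 in tumour 5 but 4.97 in tumour 8. Rasl11a (0.91), Kcnip3, a calcium-binding channel modulator (0.87), Gstk1 (0.87) and Gldc, the glycine decarboxylase (0.85), followed. Snhg14, a long non-coding RNA of chromosome 7 (-0.92), 9530059O14Rik (-0.92), Adgrg2 (-0.90) and Slc4a10, a bicarbonate transporter (-0.90), were lowest. These slopes on Dlx3 had limma adjusted p-values between 0.147 and 0.26.

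**Figure D4:**
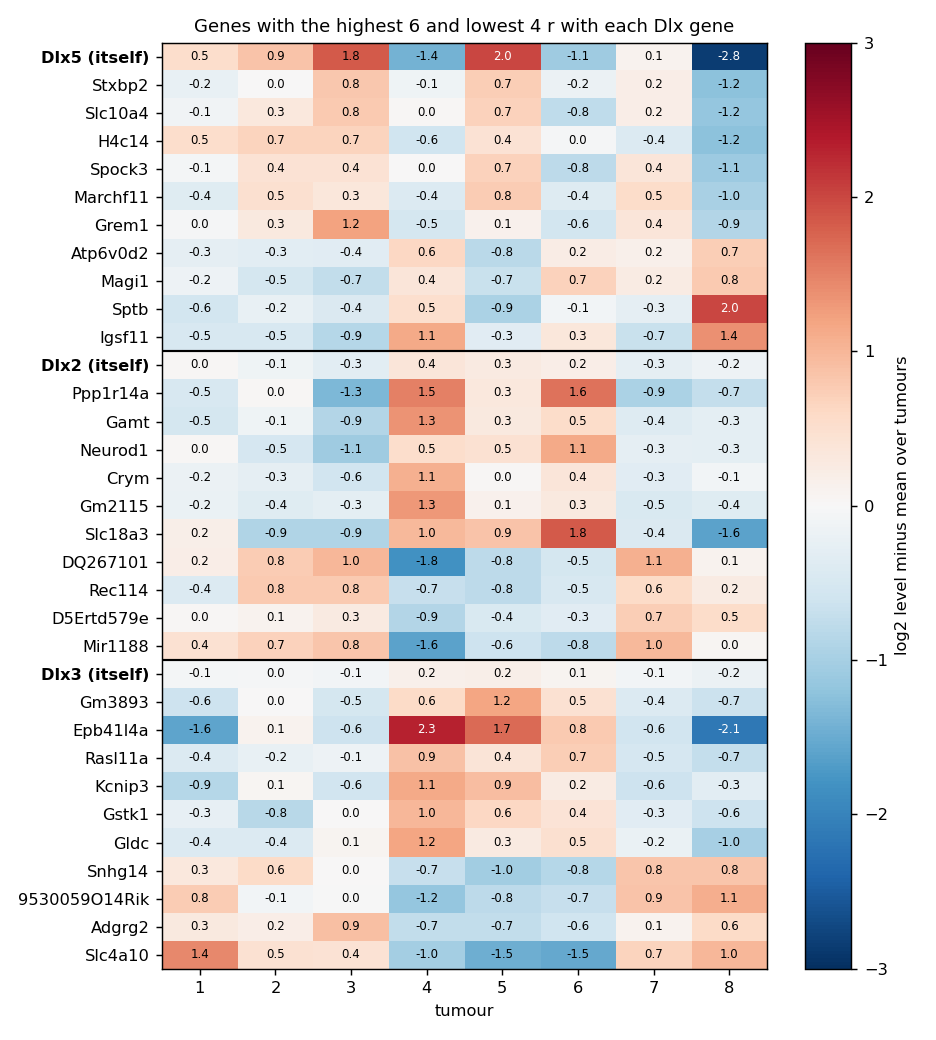
Log2 level minus its mean over the tumours (colour and printed value) for Dlx5, Dlx2 and Dlx3 and, under each, the 6 genes with the highest r and the 4 with the lowest, with tumours as columns. Tumour 8 is the low end for Dlx5 and its 6 most similar genes, and tumours 4, 5 and 6 are the high end for Dlx2 and Dlx3.

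Genes that act with or downstream of Dlx factors in other tissues were listed by tissue. Of the 24 genes of the GABA neuron list, 19 had a level and 11 were above background, near the 57.3% of all genes. None of the 22179 genes tested passed the adjusted slope on Dlx5, so no gene of this or the following lists could pass it. The median r of the 19 with Dlx5 was -0.02, against -0.01 over all genes. Gad2, a GABA-synthesising enzyme and a known Dlx target in forebrain, was at 10.29 in tumour 8, where Dlx5 was lowest, and at 10.09 in tumour 5, where it was highest. Gad2 was lowest in tumour 6 (5.57). Npy, a neuropeptide, ran from 6.41 in tumour 6 to 11.60 in tumour 2, Vip from 6.24 in tumour 4 to 11.85 in tumour 7, and Meis2, a homeodomain cofactor, from 7.05 in tumour 6 to 10.96 in tumour 8. The other GABA-synthesising enzyme gene, Gad1, was near background with little spread (5.89 ± 0.20), and Slc32a1, the vesicular GABA transporter, was not called (5.75 ± 0.21).

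Of the pharyngeal arch list, 23 of 28 genes had a level and 12 were above background, where 57.3% of all genes were. As over the whole array, none passed the adjusted slope on Dlx5 (median r -0.01). Hand2, which lies downstream of Dlx5 and Dlx6 in the mandibular arch of the mouse, was at 10.57 ± 0.35 (SD, n = 8) with the tumours between 9.94 and 11.02. It was high in tumour 8 as well, where Dlx5 was below background, and lowest in tumour 6. Goosecoid (Gsc), another arch target, stayed at 6.62 ± 0.11. Among the 12 genes above background, the 4 with the largest SD were Tfap2b (2.28), Pou3f3 (1.70), Mef2c (0.78) and Ece1 (0.72), of which the first pair was lowest and the other pair highest in tumour 6.

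Of 20 genes of upstream signals and cofactors, 19 had a level and 12 were above background, where 57.3% of all genes were. As over the whole array, none passed the adjusted slope on Dlx5 (median r -0.01). Without adjustment, 1 had a positive and 1 a negative slope on Dlx5 at limma p under 0.05, marks reached by 1.93% and 2.27% of all genes. These were Bmp2, a BMP ligand that was not called above background (r = 0.72), and Id2, an inhibitor of basic helix-loop-helix factors (r = -0.76, limma adjusted p = 0.999). Id2 was at 10.01 in tumour 8 and 7.84 in tumour 2. Bmpr1b, a BMP receptor, ran from 5.45 in tumour 4 to 8.51 in tumour 8. Bmp7 was highest in tumours 6 and 4 (8.17 and 8.13) and Id3 in tumour 4 (7.78).

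Of the 12 osteoblast genes listed, 9 had a level and 4 were above background, where 57.3% of all genes were, with none passing the adjusted slope on Dlx5 (median r -0.21). These were Col1a1, Col1a2, Sparc and Alpl, of which fibroblasts make the first 3 too. Sp7, a bone master regulator, and the bone matrix gene Ibsp were not called (5.11 ± 0.18 and 4.08 ± 0.18). Of 12 surface ectoderm and placenta genes, 10 had a level, 3 were above background and none passed (median r 0.28).

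Markers of keratinocytes stood out in tumour 5, the tumour with the highest Dlx3, Dlx4, Dlx5 and Dlx6. All 7 measured markers of the 8 listed were highest there, and 3 were called above background, where 57.3% of all genes were. Krt14, a basal keratin, was at 9.13 in tumour 5 and between 4.82 and 5.29 in the others. Krt10, Lor and Sbsn were at 7.68, 6.84 and 7.27 in tumour 5, and the mean of these 3 was 0.80 above their average in that tumour, with the rest between -0.21 and 0.00. Tumour 3 had Dlx5 and Dlx6 at 9.68 and 7.41 with Krt14 at 5.29. The part of keratinocytes in the levels of tumour 5 was not tested. Without tumour 5 the SD of Dlx5 was 1.58 and that of Dlx6 was 0.93, and the SD of Dlx4 was 0.13.

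The mean of the 6 detected crest progenitor and glia genes was highest in tumours 4 and 6, at 1.82 and 1.21 above average. It lay between -0.88 and -0.18 elsewhere. Of the 6 genes, 5 were highest in tumour 4, and Snai2 was lowest there. Of the 10 measured genes, 6 had a positive slope on Dlx2 at an unadjusted limma p under 0.05, a mark reached by 9.76% of all genes. The median r of the 10 with Dlx2 was 0.72, against 0.14 over all genes. None passed after adjustment. This was not particular to the list. At the same mark, 9 of 23 pharyngeal arch genes had a positive and 1 a negative slope on Dlx2 (median r 0.44). Of 19 upstream genes, 5 were positive and 1 negative, and of 12 fibroblast and pericyte genes 1 was positive and 5 negative. Cartilage and bone genes had a median r of 0.61 with Dlx2. With Dlx5 the median r of the crest and glia genes was -0.46. Fabp7, a lipid carrier of radial glia, had r = -0.73 with Dlx5. Its level was 12.03 in tumour 4 and 11.51 in tumour 6 but 6.24 in tumour 5. Snai2, a crest and mesenchymal factor, had r = 0.71 and was highest in tumour 3 (7.48). Erbb3 and Sox10, like Fabp7, were highest in tumours 4 and 6, at 9.50 and 8.58 and at 8.32 and 8.05. Ednrb was at 8.63 in tumour 4 but at 6.77 in tumour 6, near its mean of 6.85.

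The remaining cell type lists gave no adjusted call on Dlx5, as no gene on the array did. Their counts above background, in brackets, compare with 57.3% of all genes. The median r with Dlx5 was 0.17 for adrenergic transcription factors (9 of 10 measured genes above background), 0.03 for catecholamine genes (9 of 10), 0.10 for macrophage genes (10 of 10) and 0.11 for fibroblast and pericyte genes (11 of 12). It was -0.21 for endothelial genes (8 of 9), -0.25 for skeletal muscle genes (6 of 10) and -0.14 for cartilage and bone genes (2 of 7). In tumour 8, with the lowest Dlx5, the means of detected adrenergic and catecholamine genes were 0.46 and 0.62 above average. In tumour 6 these means were 1.55 and 1.53 below average (-1.55 and -1.53), and Dlx5 was at 6.78. Of 10 measured genes per list, 6 adrenergic and 7 catecholamine genes were lowest in tumour 6, with Slc6a2 equally low in tumour 7. Insm1 was highest in tumour 6 (8.80). Sox11 and Satb1 were above their means there (9.08 against 9.05 and 9.56 against 9.45). The means of these lists and the level of Dlx5 had their low ends in different tumours.

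**Figure D5:**
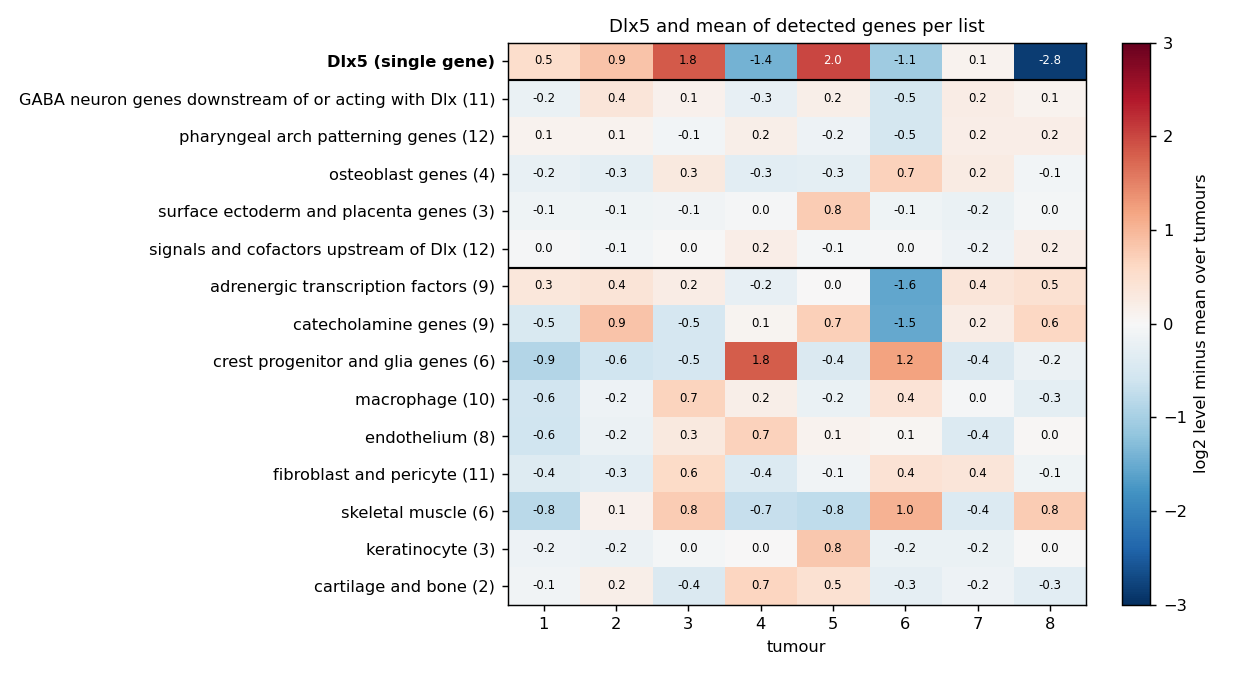
Dlx5 and the mean of the detected genes of each list (number of genes in brackets), as log2 level minus the average over the tumours (colour and printed value), with tumours as columns. The Dlx5 minimum in tumour 8 has no matching minimum in a list, keratinocyte genes peak in tumour 5, and crest and glia genes peak in tumours 4 and 6.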

How the data were processed

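Total RNA of 8 tumours was measured on Affymetrix arrays. The deposited values are log2 levels per probe set that the authors made using RMA and Partek 6.5, as the submitters' processing notes list them without roles. Values between 2.07 and 13.61 show the log2 scale. Of 41345 probe sets, the platform annotation names 23521 with 1 symbol, 1814 with several and 16010 not at all. Chromosomes and neighbours come from a RefSeq table of GRCm38.p6, since the labels name no build for the probe sets.

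The members and gene lists were chosen with earlier results of these data known. Level above background was each level minus the receptor background of the same array, set from 1435 probe sets. It and the slopes on each member were tested with limma 3.58.1 in R 4.3.3. Trend and robust prior were used, with Benjamini-Hochberg adjustment over all genes at 0.05. Both tests were run on simulated data with larger offsets from background than those of Dlx2 and Dlx3. The simulated slopes on Dlx5 were steeper than those of the genes named as most and least like it. Smaller effects were not simulated. Relations used exact permutation of 40320 pairings (720 for 6 tumours), and tumours counted as clusters where the largest gap exceeded 0.5 of the range. Named genes are the members, their antisense genes, 5 neighbours per side, the 6 highest and 4 lowest r, and the 4 largest SDs of detected genes per list. Further genes in the text were picked with their values in view. Alternatives were other probe set rules, scalings, background levels and priors, a filter on low genes, Spearman's rho and each tumour left out. Plots used matplotlib 3.10.9 and Python 3.11.15; tests used scipy 1.17.1 and numpy 2.4.6. Arrays carry no molecule counts, and their number limits the precision.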

Additional observations from a re-analysis of the deposited data

Results flagged for a closer look

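A screen covered 99 genes named by the rules above or neighbouring a Dlx pair. Of these, 12 had 1 tumour farther from the others than Dixon's test allows at its 95% level. Chance alone gives this in about 1 of 20 groups, but many of the 99 were chosen for a large SD or an extreme r. That rate is therefore no measure of whether 12 is many. None of the 5 Dlx genes was among the 12. Krt14 (9.13 in tumour 5) and Snai2 (7.48 in tumour 3), picked with their values in view, are not in the count. In tumour 5, Krt10 (7.68), Lor (6.84), Grhl3 (6.36) and Sbsn (7.27) were high. In tumour 6, Tfap2b (4.88), Gata3 (6.93), Tbx2 (6.24) and Dbh (5.72) were low and Alpl (7.88) was high. Metap1d, at the Dlx1/Dlx2 locus, was high in tumour 1 (7.44), Gm2115 was high in tumour 4 (7.28) and Col2a1 was low in tumour 3 (6.09).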

How the results depend on the processing

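No paired analysis was possible because the labels give 1 group. The calls of Dlx2, Dlx3 and Dlx5 held under the other probe set rule, scalings, limma prior and each tumour left out, and were set by the background level. With the median of receptor probe sets 20163 genes and 5 of 5 members were called, with Dlx4 at 1.45 above it. At the 99th percentile 9288 genes and 0 members were called, with Dlx2, Dlx3 and Dlx6 at -0.58, -0.68 and -0.90. Leaving out 1 tumour, Dlx6 lay between -0.16 and 0.26 of background and was not called, with the negative values when tumour 3 or 5 was left out. None of the 10 relations passed with other scalings or Spearman's rho, and none of the 6 without Dlx6 passed with 1 tumour left out, which was not run for the 4 with Dlx6. Leaving out 1 tumour, r ran from -0.45 to 0.10 for Dlx2 with Dlx5, from -0.24 to 0.48 for Dlx3 with Dlx5 and from -0.35 to 0.36 for Dlx4 with Dlx5, so these 3 have no settled sign. It ran from 0.38 to 0.75 for Dlx3 with Dlx4. Genes with an adjusted slope numbered 0 to 4 for Dlx3, 0 to 2 for Dlx5 and 0 to 2 for Dlx6 with 1 tumour left out. The 4 for Dlx3 came without tumour 5 (Gpc3, Htr3a, Shox2 and Tox), and the 2 for Dlx6 without tumour 7 (Kctd12 and Sgpp2). For Dlx2 they numbered 3 with centred arrays (DQ267101, Ipw and Mir1188), 1 with averaged probe sets and 1 with renewed quantile normalization. The cause of these changes was not tested.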

Other observations

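The probe set annotated to both Dlx1as and Dlx1 had its highest values in tumours 4 and 5 (6.07 and 5.82) and lay between 5.31 and 5.58 in the other 6. Tumours 4 and 5 were also the highest for Dlx2 and Dlx3. This was not particular to Dlx genes. Some other genes not called above background, among them Slc32a1, Gsx2 and Hoxa2, were highest in these tumours too. The probe set annotated to both Dlx1as and Metap1d stayed between 4.87 and 5.17. Neither can be given to 1 gene.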
